A study of Homo sapiens with 9 samples.

Results

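The replication-dependent histone genes were read with 83 array probes for 73 genes, of which 32 probes for 28 genes gave a signal above background and are the members described here. A probe was taken when the annotation gave it a symbol beginning with H1-, H2AC, H2BC, H3C or H4C (or an older HIST1 to HIST4 name) and it was detected (p under 0.05 against the negative controls) on 3 or more of the 9 arrays. The whole array held 47323 probes, of which 18185 met the same detection rule, and the 28 genes are among 10307 named genes that did. The cells were Ramos, a human Burkitt's lymphoma line that grows in suspension. They received HDL NPs at 40 nM, human HDL at 40 nM or PBS alone, and RNA was taken after 48 h on 3 arrays per condition, which the study describes as biological replicates. An HDL NP is a gold core carrying apolipoprotein A-I and phospholipid, and it binds the HDL receptor SCARB1 as human HDL does, but it is poor in cholesterol. The comparisons ask what HDL NPs do to this group of transcripts and whether cholesterol-rich human HDL at an equal molar dose does the same. One line in culture is the model, so the values describe that line only.

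Histones package DNA. Pairs of H2A and H2B and of H3 and H4 form the nucleosome core, and the H1 linker histones bind where DNA enters and leaves it. Most of these proteins come from many near-identical genes crowded into clusters on chromosomes 6 and 1, which are switched on together as DNA synthesis begins, when NPAT, a target of cyclin E and CDK2, activates their transcription. Their mRNAs are unusual in ending in a stem-loop, held by SLBP, in place of a poly(A) tail, and they are degraded when DNA synthesis stops. The labelling kit named in the sample records copies RNA from the poly(A) tail, so the arrays read chiefly those histone transcripts that carry one. Several histone genes, H2BC5 and H2BC21 among them, are known to make such transcripts. H1-10 is a linker histone that is made outside DNA synthesis too. It is a member through its symbol.

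The promoters of these genes carry a small set of shared elements, and 6 are shown so that the genes whose levels are given below can be seen with their control regions. RefSeq promoter windows (GRCh38.p14, 250 bases before the start to 50 after) matched 68 of the 73 genes and 26 of the 28 that passed. The lines give the 250 bases before the start, 5′ to 3′ on the strand of the gene. Capitals mark matches, on either strand, to the letters TATAAA for a TATA box, CCAAT for the box of that name, ATGCAAAT for the octamer read by POU2F1 and its B cell relative POU2F2, TTTCGCGC for an E2F site and GGTCCG for part of the H4 element called site II.
H2AC20 (chr1:149886668-149886917, plus strand): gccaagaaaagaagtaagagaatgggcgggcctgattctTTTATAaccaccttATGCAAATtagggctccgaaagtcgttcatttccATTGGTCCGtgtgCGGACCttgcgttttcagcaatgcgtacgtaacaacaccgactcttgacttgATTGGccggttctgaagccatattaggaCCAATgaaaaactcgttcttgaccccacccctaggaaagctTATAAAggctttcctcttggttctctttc
H2AC18 (chr1:149842751-149843000, minus strand): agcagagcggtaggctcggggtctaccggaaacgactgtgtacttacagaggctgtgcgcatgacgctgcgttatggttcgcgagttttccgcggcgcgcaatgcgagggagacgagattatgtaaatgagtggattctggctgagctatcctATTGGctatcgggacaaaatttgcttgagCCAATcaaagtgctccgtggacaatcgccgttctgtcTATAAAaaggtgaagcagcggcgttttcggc
H2BC12 (chr6:27146859-27147108, minus strand): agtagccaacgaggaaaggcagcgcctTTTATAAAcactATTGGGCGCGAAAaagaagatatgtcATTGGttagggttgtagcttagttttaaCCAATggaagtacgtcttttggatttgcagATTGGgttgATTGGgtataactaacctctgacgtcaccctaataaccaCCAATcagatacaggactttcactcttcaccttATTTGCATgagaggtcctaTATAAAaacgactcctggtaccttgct
H4C14 (chr1:149832407-149832656, plus strand): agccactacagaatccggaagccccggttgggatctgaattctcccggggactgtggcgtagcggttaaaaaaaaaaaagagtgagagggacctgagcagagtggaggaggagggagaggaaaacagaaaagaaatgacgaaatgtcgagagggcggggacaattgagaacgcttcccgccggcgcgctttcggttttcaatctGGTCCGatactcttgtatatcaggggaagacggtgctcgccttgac
H1-2 (chr6:26056471-26056720, minus strand): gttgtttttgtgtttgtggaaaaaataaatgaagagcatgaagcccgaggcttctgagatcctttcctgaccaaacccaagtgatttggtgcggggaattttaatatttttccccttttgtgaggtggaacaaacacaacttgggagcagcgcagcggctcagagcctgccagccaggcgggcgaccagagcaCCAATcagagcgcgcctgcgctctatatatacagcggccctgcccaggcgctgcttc
H1-10 (chr3:129316287-129316536, minus strand): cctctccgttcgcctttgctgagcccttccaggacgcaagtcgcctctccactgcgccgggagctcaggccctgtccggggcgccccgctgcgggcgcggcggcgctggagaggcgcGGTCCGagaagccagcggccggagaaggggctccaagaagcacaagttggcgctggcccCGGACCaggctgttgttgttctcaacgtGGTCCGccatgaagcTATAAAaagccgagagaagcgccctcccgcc
H2AC20 is transcribed away from H2BC21, with 236 bases between the starts, and the windows of the pair share 265 bases, so the octamer and TATA boxes seen in the H2AC20 line belong to both. The windows of H2AC18 and H2AC19 are shifted by 1 base and agree in all 299 bases compared. H2BC12 holds an octamer, an E2F site and several CCAAT boxes, whereas the H4C14 window holds only the site II letters and that of H1-2 only a CCAAT box.

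Over the families, the elements were unevenly spread. The CCAAT box was present in all 16 H2A, all 18 H2B and all 12 H3 windows and in 3 of 13 H4 windows, against 35.7% of the 27305 promoters in the table. An octamer was found in 11 of 16 H2A and 14 of 18 H2B windows, in 1 of 12 H3 windows and in no H1 or H4 window, against 1.8% of all promoters. The site II letters stood in 12 of 13 H4 windows (92.3%), against 11.2% of all promoters, and in no more than 1 window of each other family. TATA boxes (64.7% of histone windows against 12%) and E2F sites (17.6% against 0.546%) were found in some windows of most families. Divergent H2A and H2B pairs share one window's letters, so these are not independent counts, and a match describes the letters only.

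**Figure D1:**
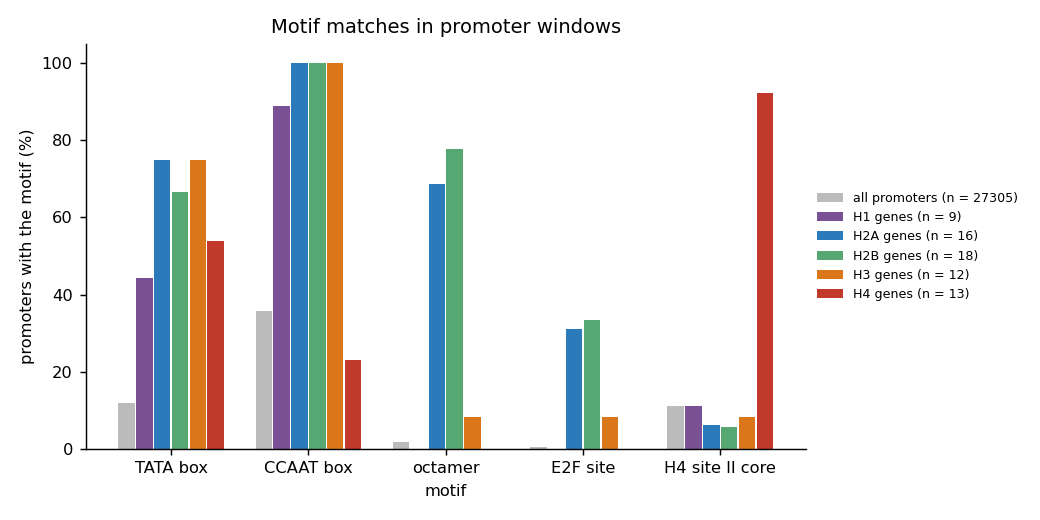
Share of promoter windows (y axis, percent) with each motif (x axis), for all 27305 promoters of the table and for the annotated genes of each histone family (n in the key). Among the histone families the octamer is found in H2A and H2B windows and in 1 of 12 H3 windows, and the site II letters stand in 92.3% of H4 windows.

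Detection was uneven over the members. By family, 3 of 9 H1 probes, 8 of 19 H2A, 9 of 23 H2B, 6 of 17 H3 and 6 of 15 H4 probes passed. In the HIST2 cluster on chromosome 1, 9 of 16 probes passed, compared with 21 of 59 in the large HIST1 cluster on chromosome 6. Of all 83 probes, 16 were above background on all 9 arrays, 12 on only 1 or 2 and 39 on none. At the edge of the rule, the H3C13 probe ILMN_3249188 was detected on 3 arrays and had an intensity of 92.2 to 103 units, and the H2BC14 probe was detected on 2 and had 89.3 to 97.8 units. Of the 32 members, 17 had a mean normalized level above 5 on the log2 scale, a split made after the values were seen.

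The arrays were alike in brightness, with a mean intensity of 228 to 278 units and 33.9% to 38.1% of all probes detected. HDL NP replicate 1 stood apart from the rest of its group. Its probes deviated from the group mean by 0.22 on average on the log2 scale, against 0.11 to 0.17 on the other 8 arrays. The main results that rest on it are therefore given with and without it. Of 10 B cell markers on the array, such as CD79A and MS4A1, 9 were detected on all arrays. T cell markers were detected on at least 3 arrays for 2 of 9 genes and myeloid markers for 3 of 10.

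With HDL NPs, most histone probes were lower than with PBS, most of them by little, and none passed the test. H4C3, H2AC20 and the linker histone H1-10 had lower levels on all 3 HDL NP arrays than on any PBS array, with differences of 1.57-fold, 1.65-fold and 1.49-fold. H1-2 was the 1 member higher on every HDL NP array than on every PBS array, by 1.21-fold. Across all 18185 probes, the limma test with Benjamini-Hochberg adjustment over all of them called 12 (0.066%) at an adjusted p under 0.05, and 0 of the 32 histone probes were among them. At an unadjusted p under 0.05, 9 of the 32 were lower (28.1%, against 5.85% of all probes) and 0 were higher (against 7.07%). Without HDL NP replicate 1 these were 2 lower (6.25%, against 5.59% of all probes in the same fit), H1-10 and H4C3, and 1 higher (3.12%, against 6.39%), H1-2. These members share cells, arrays and, for several, nearly the same sequence, so the counts describe them together and are not 32 separate measurements.

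H4C3, which encodes the core histone H4, gave deposited intensities of 7817, 9223 and 5974 units with PBS and 3668, 5637 and 4288 with HDL NPs. After normalization its log2 level was 12.87, 12.90 and 12.63 on the PBS arrays. The human HDL arrays read 12.94, 12.45 and 12.65, and the HDL NP arrays 11.80, 12.56 and 12.08. All HDL NP arrays thus lay below all PBS arrays, while 1 human HDL array was below the highest HDL NP array. The HDL NP mean was 12.15 ± 0.39 (SD, n = 3) and the PBS mean 12.80 ± 0.15 (SD, n = 3), a log2 difference of -0.65 (SE 0.19, limma adjusted p = 0.198). Without HDL NP replicate 1 the difference was -0.48 (limma adjusted p = 0.335).

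Other H4 genes differed by less or from fewer arrays. H4C12 read 5.51, 5.25 and 5.51 with PBS and 4.50, 5.32 and 4.90 with HDL NPs, and was above background on 2 of the 3 HDL NP arrays. Its groups overlapped, and the log2 difference of -0.51 (SE 0.18) became -0.31 without HDL NP replicate 1. H4C14 and H4C15 are copies in the HIST2 cluster whose RNAs the probes may not tell apart. They differed by -0.35 and -0.11 on the log2 scale, and by -0.20 and 0.13 without HDL NP replicate 1. H4C8 and H4C11 showed differences of -0.03 and 0.01, and of -0.05 and 0.14 without that array.

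H2A probes were lower in 8 of 8 cases with HDL NPs, with a median log2 difference of -0.41. All 8 were also below 0 without HDL NP replicate 1, at a median of -0.19. H2AC20, the H2A gene of the divergent pair shown above, read 6.41, 6.02 and 6.37 with PBS, 6.30, 5.77 and 6.09 with human HDL and 4.77, 5.86 and 5.99 with HDL NPs. Its difference was -0.73 (SE 0.27, limma adjusted p = 0.302). HDL NP replicate 1 lay far below everything else, and the other HDL NP arrays were just under the lowest PBS array, so the difference shrank to -0.34 without replicate 1. H2BC21, which shares the promoter with H2AC20, was near background and read 4.32, 4.62 and 4.49 with PBS and 4.81, 4.35 and 4.92 with HDL NPs. The groups of H2BC21 overlapped, at a difference of 0.21 (SE 0.17).

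The duplicated genes H2AC18 and H2AC19 encode near-identical RNAs, and their probes may each read both. The H2AC18 probe ILMN_1659047 read 5.92, 5.95 and 5.78 with PBS and 4.96, 5.63 and 5.75 with HDL NPs. H2AC19 read 6.13, 5.97 and 6.13 with PBS and 5.06, 5.99 and 5.81 with HDL NPs. Relative to the PBS mean, HDL NP replicate 1 was at -0.92 and -1.01 for these probes, and the other HDL NP arrays were at or just under the PBS range. The differences were -0.44 (SE 0.18) for H2AC18 and -0.45 (SE 0.20) for H2AC19, and without HDL NP replicate 1 they were -0.19 and -0.18. The second H2AC18 probe, ILMN_2144426, was spread over 4.85 to 5.96 on the PBS arrays alone, so its difference of -0.40 (SE 0.26) lies inside that spread, and it was -0.19 without HDL NP replicate 1. H2AC25, the HIST3 cluster member, read 5.20, 5.28 and 5.39 with PBS and 4.53, 4.89 and 5.20 with HDL NPs, which places the highest HDL NP array just under the lowest PBS array. Its difference was -0.42, and -0.25 without HDL NP replicate 1.

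**Figure D2:**
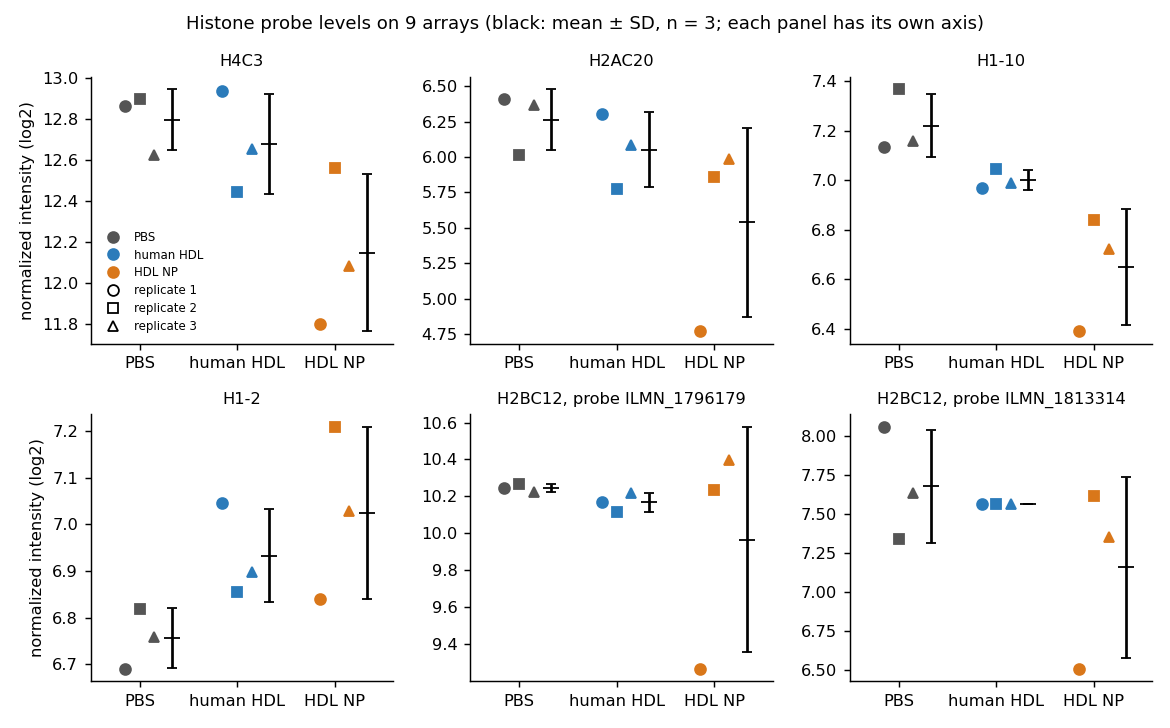
Normalized intensity (y axis, log2) of 6 probes on the 9 arrays, by condition (x axis), with points shaped by replicate number and black bars for mean ± SD (n = 3). HDL NP replicate 1 is the lowest array for every probe but H1-2, and the HDL NP arrays of H1-10 all lie below the others.

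H2B probes were lower in 8 of 9 cases, with a median of -0.21. Only 4 of the 9 were below 0 without HDL NP replicate 1, and the median was then 0.01. H2BC12, whose promoter carries both the octamer and the E2F letters, was read by a pair of probes. With ILMN_1796179 the PBS arrays lay within 10.23 to 10.27 and the human HDL arrays within 10.12 to 10.22, whereas the HDL NP arrays read 9.27, 10.24 and 10.40. The group difference of -0.28 (SE 0.23) therefore came from HDL NP replicate 1, and without it the difference was 0.07. With ILMN_1813314 the PBS arrays read 8.06, 7.34 and 7.64 and the HDL NP arrays 6.51, 7.61 and 7.35, so replicate 1 was again the lowest, and the difference of -0.52 became -0.20 without it. H2BC5 behaved alike with probe ILMN_1651496, at 6.39, 6.19 and 6.37 with PBS and 5.41, 6.06 and 6.57 with HDL NPs. The difference there was -0.30 (SE 0.22) with all arrays and -0.0007 without replicate 1.

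Linker histones differed in direction. H1-10 read 7.14, 7.37 and 7.16 with PBS, 6.97, 7.05 and 6.99 with human HDL and 6.39, 6.84 and 6.72 with HDL NPs. The PBS, human HDL and HDL NP arrays lay in that order, from high to low, with no overlap, and the HDL NP difference of -0.57 (SE 0.14, unadjusted p = 0.00147, limma adjusted p = 0.120) had the lowest p of any member. The difference was -0.44 without HDL NP replicate 1 (limma adjusted p = 0.163). H1-2 read 6.69, 6.82 and 6.76 with PBS, 7.05, 6.85 and 6.90 with human HDL and 6.84, 7.21 and 7.03 with HDL NPs. Both treated groups lay above all PBS arrays and overlapped each other, and the HDL NP difference was 0.27 (SE 0.13, limma adjusted p = 0.405). The H1-2 difference without HDL NP replicate 1 was 0.36 (unadjusted p = 0.00956, limma adjusted p = 0.248). H1-1 was near background and differed by -0.11 (SE 0.18), or by -0.23 without that array.

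H3 members were dim, with only 1 of 17 annotated H3 probes detected on all arrays. The H3C13 probe ILMN_1664706 read 5.32, 5.13 and 5.35 with PBS, 4.97, 4.59 and 4.94 with human HDL and 4.61, 4.99 and 5.14 with HDL NPs. Its log2 difference from PBS was -0.43 with human HDL and -0.35 with HDL NPs (-0.20 without HDL NP replicate 1), and only its human HDL arrays were all below PBS. H3C13 has near-identical copies, H3C14 and H3C15, whose own probes did not pass. The other H3C13 probe, ILMN_3249188, was not above background on any human HDL array. With PBS it was detected on 1 array and read 4.50, 4.53 and 4.81. Its PBS mean of 4.61 was 1.03-fold above the background bound of 4.57 on the human HDL arrays, where the measured mean was 4.47. The PBS and human HDL arrays overlapped, so no difference is shown for this probe. The remaining H3 probes differed from PBS by between -0.22 and 0.11 with HDL NPs, and by between -0.19 and 0.14 without HDL NP replicate 1.

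**Figure D3:**
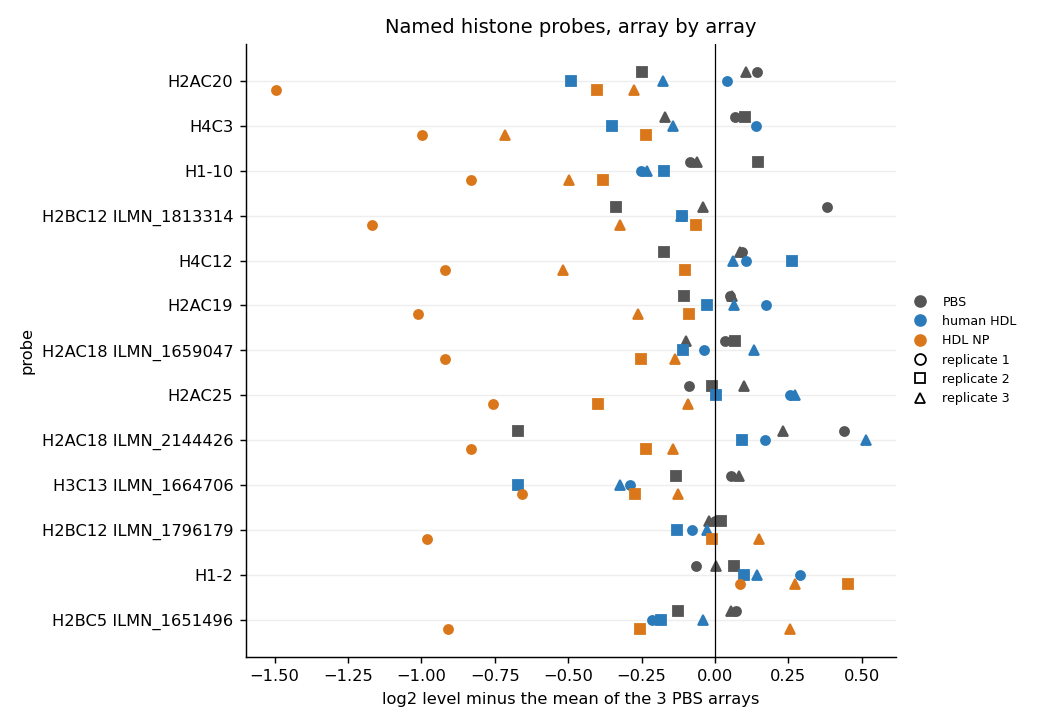
Log2 level of 13 histone probes (y axis: those with the 10 largest differences between HDL NP and PBS and the 8 with the highest PBS mean) minus the mean of the PBS arrays (x axis), with 1 point per array, coloured by condition and shaped by replicate. HDL NP replicate 1 is at -1.50 for H2AC20 and at -0.83 for H1-10, and H1-2 is the 1 probe with every HDL NP point to the right of 0 and of all PBS points.

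As a list, 28 of the 32 probes had a log2 difference below 0 between HDL NP and PBS (87.5%, against 47.7% of all probes), with a median of -0.21 (all probes 0.01). Groups did not overlap and HDL NP was lower for 5 (15.6%, against 8.38% of all probes), namely H4C3, H2AC20, H1-10, H2AC25 and the H2AC18 probe ILMN_1659047. The groups did not overlap and HDL NP was higher for 1 (3.12%, against 9.89%). By the study's own rule, a fold over 1.5 with an unadjusted p under 0.05, H4C3 and H2AC20 were lower (6.25%, against 1.01% of all probes) and 0 were higher (against 1.31%). The 17 probes with a mean above 5 had a median of -0.40 and the 15 dimmer ones -0.04, and the medians of all probes above and below that level were 0.02 and 0.01. Without HDL NP replicate 1, the median over the 32 was -0.14 (all probes -0.01) and 23 were below 0 (71.9%, against 52% of all probes). The 17 brighter probes then had a median of -0.19 and the 15 dimmer ones -0.10. Groups did not overlap and HDL NP was lower for 5 (15.6%, against 15.4% of all probes in that fit), and by the study's rule 0 remained.

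The shift was thus largest on 1 array. Relative to the PBS mean, the median over the 32 probes was -0.43 on HDL NP replicate 1, -0.13 on replicate 2 and -0.11 on replicate 3. It was -0.06 to 0.05 on the PBS arrays and -0.15 to -0.03 on the human HDL arrays, so HDL NP replicates 2 and 3 lay inside the range of human HDL. Among the 17 brighter probes the HDL NP medians were -0.83, -0.14 and -0.14, and 16, 15 and 12 of the 17 lay under the PBS mean. All human HDL and PBS arrays stayed between -0.11 and 0.06 for these probes. On the human HDL arrays 8, 11 and 9 of the 17 lay under the PBS mean, and on the PBS arrays 6, 9 and 6. HDL NP replicates 2 and 3 were thus close to human HDL replicate 2, which had the median of -0.11. What set HDL NP replicate 1 apart was not tested.

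Human HDL against PBS gave small differences in both directions. No probe of the array was called (0 of 18185, 0%, limma), so 0 of 32 histone probes were. At an unadjusted p under 0.05, 1 of 32 was lower, the H3C13 probe ILMN_1664706 (3.12%, against 1.3% of all probes), and 0 were higher (against 1.13%). Human HDL was lower without overlap for 4 of 32 (12.5%, against 4.55%), which were that probe, H1-10, H2BC11 and the H2BC12 probe ILMN_1796179. H1-2 was higher without overlap (3.12%, against 4.61%). By the study's rule 0 of 32 were lower (against 0.0495%) and 0 were higher (against 0.011%). The H1-10 difference was -0.22 (SE 0.14, 95% interval -0.52 to 0.08) and that of H1-2 was 0.18 (SE 0.13). A log2 difference below 0 was seen in 19 of 32 probes (59.4%, against 49.2%), with a median of -0.10, and H4C3 differed by -0.12 (95% interval -0.53 to 0.30).

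Between the particles, HDL NP was lower than human HDL for most of the brighter probes. Limma called 33 of 18185 probes (0.181%) and 0 of the 32. At an unadjusted p under 0.05, 8 were lower (25%, against 6.08%) and 0 higher (against 7.92%). H4C12 read 5.53, 5.68 and 5.48 with human HDL, all above the HDL NP arrays, and its difference was -0.66 (SE 0.18, limma adjusted p = 0.160). H2AC25 read 5.54, 5.29 and 5.56 with human HDL, also with no overlap, at -0.59 (SE 0.16, limma adjusted p = 0.158). Without HDL NP replicate 1 the differences were -0.45 for H4C12 and -0.42 for H2AC25. H4C12, H2AC25 and the H2AC18 probe ILMN_2144426 passed the study's rule with all arrays (9.38%, against 1.28%). For H2AC20 the groups overlapped, since human HDL replicate 2 was at 5.77, under the higher HDL NP arrays.

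Non-overlapping groups with HDL NP lower were found for 7 of 32 probes (21.9%, against 9.3% of all), and H2BC8 was higher (3.12%, against 10.8%). The median over the 32 was -0.10, with 20 below 0 (62.5%, against 48.2%). For the 17 brighter probes the median was -0.40, with 14 below 0. Without HDL NP replicate 1 the median was -0.13 for these 17, with 11 below 0, and 0.01 over the 32, with 16 below 0 (50%, against 52.6% of all probes). An unadjusted p under 0.05 was then left for 2 lower probes (6.25%, against 5.49%), H2AC25 and H4C12, and 0 passed the study's rule. Groups then did not overlap for 8 lower probes (25%, against 16% of all probes in that fit) and 3 higher (9.38%, against 14%). This comparison shares its HDL NP arrays with the one against PBS, so the lists are not separate evidence.

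**Figure D4:**
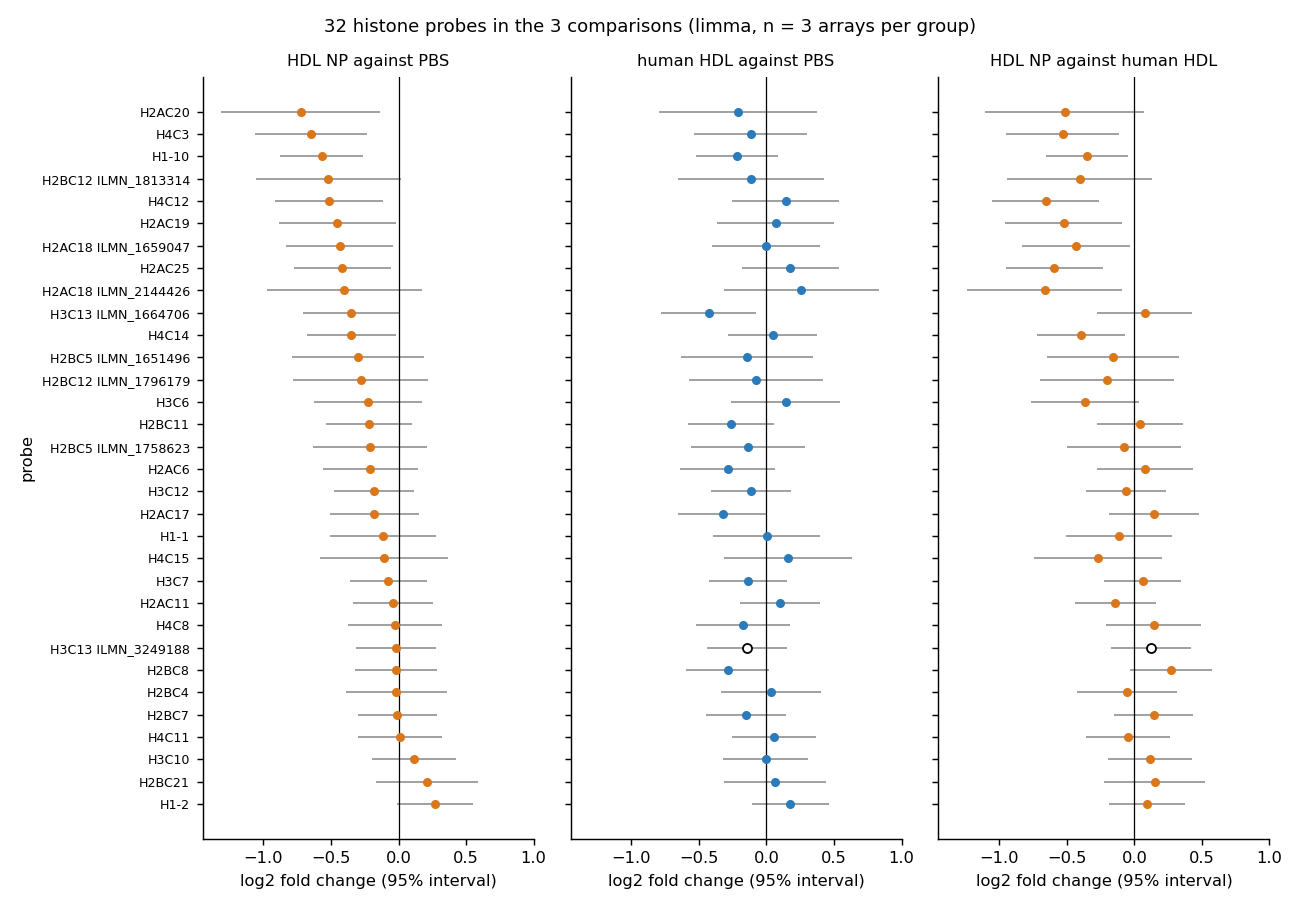
Log2 difference (x axis) with its 95% interval from limma for the 32 histone probes (y axis, ordered by HDL NP against PBS) in the 3 comparisons, n = 3 arrays per group. Open circles mark the H3C13 probe that was not above background with human HDL, and 28 of 32 points lie left of 0 for HDL NP against PBS compared with 19 of 32 for human HDL against PBS.

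By position, members of the HIST2 cluster had a median difference of -0.35 between HDL NP and PBS over 9 probes, and those of the HIST1 cluster -0.18 over 21. These medians were -0.19 and -0.10 without HDL NP replicate 1. Both clusters held probes near 0, and H4C3, the HIST1 member with the largest difference, lay beyond most of HIST2. Both probes of each gene that had a pair gave a difference below 0. For H2AC18 they gave -0.44 and -0.40, for H2BC5 -0.30 and -0.21, for H2BC12 -0.28 and -0.52, and for H3C13 -0.35 and -0.02. Without HDL NP replicate 1 the pairs gave -0.19 and -0.19, -0.0007 and -0.02, 0.07 and -0.20, and -0.20 and -0.06, in the same order. The genes with an octamer spanned the range, with H2AC20 at -0.73, H2BC21 at 0.21 and H2BC8 at -0.02.

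Genes that switch on, finish and store histones were compared from lists of known members. In the list for histone transcription and 3′ processing, 20 of 24 genes were measured and 0 were called in any comparison, with a median difference of 0.14 between HDL NP and PBS, or -0.01 without HDL NP replicate 1. SLBP, the stem-loop binding protein, differed by 0.14 (SE 0.17, limma adjusted p = 0.746), or by -0.07 without that array, and NPAT did not pass the detection rule. In the list 5 of 20 genes were higher with no overlap between HDL NP and PBS (against 9.89% of all probes) and 0 were lower (against 8.38%). The 5 were LSM11, PCF11 at 0.32 (SE 0.14), ERI1 at 0.27 (SE 0.14), POU2AF1 at 0.19 (SE 0.13) and ZNF473 at 0.14 (SE 0.11). LSM10 and LSM11, partners in the particle that trims histone mRNA ends, were named after their values were seen and differed in direction. LSM11, dim at a PBS mean of 4.53, was at 0.31 (SE 0.12) with its HDL NP arrays above the PBS arrays, whereas LSM10 was at -0.28 (SE 0.18) with overlap, and at -0.05 without HDL NP replicate 1. In the list of histone chaperones and acetylation of new histones, 20 of 20 were measured with a median of 0.13 (0.01 without HDL NP replicate 1), and NASP, which holds soluble H3 and H4, was the 1 member lower without overlap, at -0.23 (SE 0.12, limma adjusted p = 0.437). In the same list 3 of 20 genes were higher without overlap (against 9.89% of all probes) and 1 was lower (against 8.38%). The higher ones were the chaperone genes HIRA at 0.18 (SE 0.14) and UBN1 at 0.38 (SE 0.14, limma adjusted p = 0.300) and the replication repair gene TONSL. HIRA and TONSL were dim, at PBS means of 4.91 and 4.93. These genes and NASP were named after their values were seen. TONSL differed by 0.39 (SE 0.17, limma adjusted p = 0.375). HIRA and TONSL were also higher without overlap with human HDL than with PBS, at 0.28 and 0.44. Their HDL NP and human HDL arrays overlapped. UBN1 differed by 0.10 between human HDL and PBS, with overlap. Among replication-independent histone variants, 10 of 12 were measured with a median of -0.09, from -0.22 for H3-5 to 0.06 for MACROH2A1. Without HDL NP replicate 1 the median was -0.08, with 8 of 10 below 0 (80%, against 52% of all probes). On HDL NP replicates 2 and 3 the variant medians were -0.11 and -0.06, beside -0.13 and -0.11 for the 32 histone probes.

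Cell cycle lists, measured because histone genes follow DNA synthesis, had medians near or above 0 with all arrays. S phase replication genes had a median of 0.10 (22 of 24 measured) and mitosis genes 0.16 (18 of 18), with 0 called in either. Without HDL NP replicate 1 the S phase median was -0.03, with 15 of 22 below 0 (68.2%, against 52% of all probes). The mitosis median was then 0.07, with 6 of 18 below 0 (33.3%). In the cell cycle exit list, 12 of 15 were measured and the median was -0.03. Between HDL NP and PBS, 4 of the 12 were higher without overlap (against 9.89% of all probes). These were CDKN1A, GADD45A at 0.40 (SE 0.14), CCNG1 at 0.29 (SE 0.16) and RBL2 at 0.27 (SE 0.12). TOB1 was the 1 gene lower without overlap (against 8.38%), at -0.15 (SE 0.12). CDKN1A, which encodes the CDK inhibitor p21, was picked out after its value was seen. It was higher on every HDL NP array than on every PBS array, by 0.74 on the log2 scale (SE 0.14, limma adjusted p = 0.0732). The CDKN1A difference was 0.60 without HDL NP replicate 1, and human HDL differed from PBS by 0.01. The other CDK inhibitor genes measured were below 0 with overlap. CDKN2A was at -0.71 (SE 0.42), with HDL NP replicate 1 at -2.08, CDKN1C at -0.18, CDKN2D at -0.15 and CDKN1B at -0.09. Genes for mRNA polyadenylation had a median of 0.14 (17 of 18 measured) and housekeeping genes 0.10 (9 of 10), again with 0 called. The medians of these 5 lists lay between -0.03 and 0.07 without HDL NP replicate 1.

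On HDL NP replicate 1, 6 of these 8 lists lay on the opposite side of 0 from the histone probes. The exceptions were the replication-independent histone variants and the cell cycle exit genes, both at -0.11. The median relative to PBS on that array was 0.34 for histone transcription and processing, 0.29 for chaperones, 0.33 for S phase genes, 0.30 for mitosis genes, 0.36 for polyadenylation genes and 0.35 for housekeeping genes. On HDL NP replicates 2 and 3 the same 6 lists stayed between -0.07 and 0.07. The array thus differed from PBS in both directions, and the part of this in the histone values was not tested. For any lower histone reading, fewer cells in DNA synthesis and less histone RNA per cell cannot be told apart in these bulk samples. The arrays read chiefly transcripts with a poly(A) tail, so a change in the share of histone RNA carrying one cannot be told apart either.

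**Figure D5:**
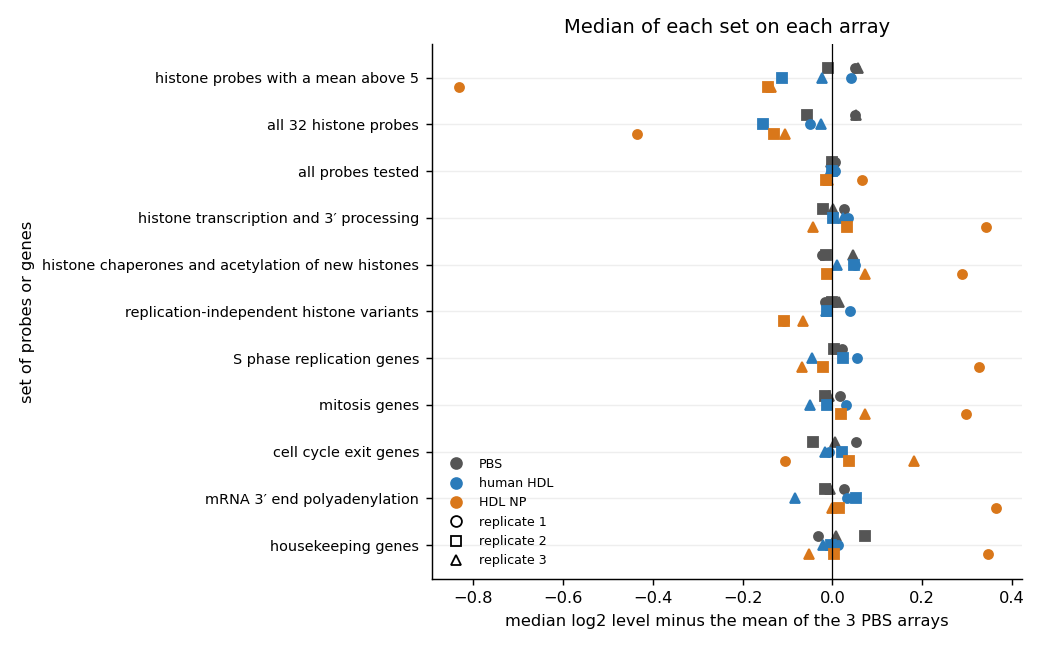
Median log2 level minus the PBS mean (x axis) of the histone probes, of all probes tested and of 8 other gene lists (y axis), with 1 point per array, coloured by condition and shaped by replicate. HDL NP replicate 1 is at -0.83 for the brighter histone probes and near 0.3 or above for 6 of the other lists, while all other arrays lie between -0.15 and 0.18.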

How the data were processed

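RNA from Ramos cells was labelled with the Ambion Message Amp kit and hybridized to Illumina HT-12 arrays, 3 per condition. The authors deposited a mean bead intensity per probe and array, neither background subtracted nor normalized, and a detection p-value for each. A second deposited table holds a signal of unstated unit, 3.21% to 3.49% of the intensity, which may not measure expression and served only as an alternative. Scanner and summary software are not given in the sources used here.

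Log2 levels were computed with limma 3.58.1 in R 4.3.3: neqc, which took the negative controls' level from the detection p-values, was run with an offset of 16 and quantile normalization. Probes with a detection p under 0.05 on at least 3 of 9 arrays were kept (18185 of 47323). Of all probes, 30113 had 1 gene symbol in the platform annotation, 8 had several and 17202 are unnamed here; 30074 matched RefSeq by gene ID. All 9 arrays entered 1 fit (lmFit, eBayes, condition as the only term), with Benjamini-Hochberg adjustment over all kept probes. An exact permutation test of 3 against 3 arrays cannot go below p = 0.1. The number of arrays limits the precision, and p-values measure the spread between these arrays.

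The members, gene lists and tests were chosen with earlier results of these data known. Named probes are the 10 with the largest HDL NP difference, the 8 with the highest PBS mean, any called member and H1-10; others are named as examples of their family. For each listed gene the kept probe with the highest mean was used, and SRRT, listed also as ARS2, was counted once. The fit was tested on simulated data, with planted changes larger than any member's difference and noise drawn separately for each probe. An array that departs over many probes, as HDL NP replicate 1 does, was not simulated. Alternatives were no background correction, an offset of 50, median scaling, the second table, no filter, detection on all arrays, 1 value per gene in 2 ways, a replicate block, array weights, only the groups compared, Student's test and leaving out each array.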

Additional observations from a re-analysis of the deposited data

How the results depend on the processing

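No histone probe was called with any of 21 alternatives but 2. With limma array weights, 3 histone probes were called for HDL NP against PBS, H1-10, H4C12 and H4C3, all lower (9.38%, against 5.83% of all probes, 1060). For HDL NP against human HDL 3 were called, H4C12 and H4C3 lower and H2BC8 higher (9.38%, against 7.47%, 1358). With these weights 5 companion genes, over all the gene and marker lists together, were called for HDL NP against PBS, where 5.83% of all probes were. Leaving out HDL NP replicate 2 called 1 histone probe (H4C12) for HDL NP against human HDL, where leaving out each array in turn gave 0 to 1. Companion genes called for HDL NP against PBS numbered 1 without background correction (106 of all 18185 probes were called) and 1 with an offset of 50 (107). They numbered 1 with the brightest probe per gene (42 of all 10307 genes) and 1 with all kept probes of a gene averaged (28). The median log2 difference of the histone probes between HDL NP and PBS kept its sign throughout. It was -0.055 without background correction, -0.044 with no filter and -0.38 for probes detected on all 9 arrays, and -0.30 to -0.14 with 1 array left out. For HDL NP against human HDL it was -0.37 for probes detected on all 9 arrays, 0.01 with array weights and -0.16 to 0.01 with 1 array left out, the high end without HDL NP replicate 1. Histone probes lower by the study's rule for HDL NP against PBS (2 in the report) numbered 1 without background correction, 1 with an offset of 50, 5 in the second table, 1 with array weights and 0 with Student's test, and 0 to 6 with 1 array left out. For HDL NP against human HDL (3 in the report) they numbered 0 without background correction, 0 with an offset of 50, 1 in the second table, 1 with array weights and 1 with Student's test, and 0 to 7 with 1 array left out. In both, 0 were left without HDL NP replicate 1. Of 269 values for 13 named probes, 16 moved by more than the replicate SD and 6 changed sign, and none of these was called in the report. Median scaling moved the median of all probes to 0.11 for HDL NP against human HDL. Arrays with the same replicate number had weakly correlated deviations from their group means (-0.063 to 0.204). Arrays with different numbers were not compared, so pairing was not tested. With the replicate block 0 histone probes were called and the median was -0.21 for HDL NP against PBS. Over all probes the block called 7 for HDL NP against PBS and 60 for HDL NP against human HDL (12 and 33 in the report). No slide is named in the files, so a slide block was not run. The causes of these changes were not tested. Dim probes limit the result: 15 of 32 members lay near background.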
